A study of Mus musculus with 6 samples.

Results

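The Wnt ligands, R-spondins and secreted Wnt antagonists described here are 10 genes, Wnt5a, Wnt5b, Wnt11, Rspo1, Rspo2, Rspo3, Sfrp1, Sfrp2, Dkk2 and Dkk3, chosen by symbol and all found among the 23337 genes of the tables. RNA was sequenced from stromal fibroblasts of the mouse mammary gland, with 3 libraries from Sharpin-cpdm animals (genotype cpdm/cpdm, SHARPIN deficient) and 3 from wild-type animals (wt/wt), all of strain C57BL/KaLawRij and 7 weeks old. The cpdm allele is a spontaneous loss-of-function mutation of the gene for SHARPIN, a protein of the LUBAC complex, which builds linear ubiquitin chains, and a binding partner of integrins. Each library came from the glands of 3 mice, digested with collagenase and grown to confluence at passage 0 in medium with serum, so the values describe cultured cells and not the gland. The question set by the series is how SHARPIN in the stroma bears on collagen and duct growth.

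Wnt proteins are lipid-modified signals of short range that bind Frizzled receptors together with the co-receptors LRP5 and LRP6, which stabilizes beta-catenin, or together with ROR and RYK receptors, which acts largely without it. R-spondins bind LGR receptors and block the ubiquitin ligases that remove Frizzled from the cell surface, so they strengthen Wnt signals. Secreted Frizzled-related proteins bind Wnts outside the cell, and most Dickkopf proteins bind LRP5 and LRP6, which is not established for the divergent member Dkk3. In the mammary gland, Wnt signals between stroma and epithelium take part in duct branching and in the upkeep of basal progenitor cells.

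Sharpin transcripts measured 10.5, 9.13 and 9.50 CPM (reads scaled to a common total of gene counts) in Sharpin-cpdm libraries 1, 2 and 3 and 24.5, 25.2 and 31.2 CPM in wild-type libraries 1, 2 and 3, so the labels and the mutated gene pointed the same way in all 6. Libraries held between 13570649 and 15656196 gene counts, and 13442 genes passed the filter on low counts. Fibroblast markers led the libraries, with summed levels of 84397 to 98700 CPM over 18 markers in Sharpin-cpdm and 83912 to 104111 CPM in wild type, against 176 to 424 CPM and 296 to 574 CPM for 11 epithelial markers. For 10 pericyte markers the sums were 1844 to 2117 CPM in Sharpin-cpdm and 1994 to 2464 CPM in wild type. For 19 endothelial markers they were 615 to 903 CPM and 809 to 1440 CPM. Same-numbered libraries deviated together, so fold changes are given from edgeR's quasi-likelihood test with the replicate number as a block and, for the members and for other genes that passed, also without it. Without the block the adjusted p was 1.00 for each of the 9 members tested, and 0 of the other Wnt pathway genes passed. Sharpin itself, at a log2 fold change of -1.49 ± 0.14, did not pass without the block (edgeR adjusted p 0.272). With the block Sharpin passed, at -1.48 ± 0.12 (edgeR adjusted p 0.00598). The words "rose" and "fell" are written of genes that passed an adjusted p of 0.05 with the block.

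Promoter windows from 250 bases before to 50 bases after the RefSeq start are printed for Sfrp2, the member with the largest change, for Dkk2, another antagonist lower in all pairs, and for Wnt11, whose level ran opposite to Sfrp2 between libraries. They come from RefSeq on GRCm38.p6, the assembly called mm10: Sfrp2 at chr3:83766071-83766370 (plus strand), Dkk2 at chr3:132085042-132085341 (plus strand) and the first listed start of Wnt11 at chr7:98834862-98835161 (plus strand). Capitals mark matches to a TCF/LEF core (CTTTGAT, or ATCAAAG on the other strand) or a TATA box (TATAAA, or TTTATA on the other strand).
Sfrp2: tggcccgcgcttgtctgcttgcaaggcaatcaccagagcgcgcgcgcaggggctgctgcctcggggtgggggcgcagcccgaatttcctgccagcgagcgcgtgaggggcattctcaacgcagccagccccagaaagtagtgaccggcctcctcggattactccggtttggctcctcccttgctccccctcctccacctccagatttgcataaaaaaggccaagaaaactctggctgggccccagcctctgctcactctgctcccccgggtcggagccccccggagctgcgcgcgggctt
Dkk2: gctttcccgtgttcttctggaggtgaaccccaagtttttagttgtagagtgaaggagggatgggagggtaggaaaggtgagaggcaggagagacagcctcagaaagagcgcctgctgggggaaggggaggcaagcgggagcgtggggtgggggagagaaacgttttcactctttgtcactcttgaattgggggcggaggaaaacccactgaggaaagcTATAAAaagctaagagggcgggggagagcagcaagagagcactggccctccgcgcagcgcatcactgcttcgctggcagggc
Wnt11: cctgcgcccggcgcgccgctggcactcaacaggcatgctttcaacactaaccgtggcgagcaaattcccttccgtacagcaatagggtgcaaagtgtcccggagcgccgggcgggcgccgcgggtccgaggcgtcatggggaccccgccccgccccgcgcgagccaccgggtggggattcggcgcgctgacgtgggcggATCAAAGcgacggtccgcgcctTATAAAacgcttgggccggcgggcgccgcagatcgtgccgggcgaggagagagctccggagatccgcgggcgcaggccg
The Wnt11 window held the letters of a TCF/LEF core on the other strand, starting 51 bases before the start site, and a TATA box 29 bases before it. The Dkk2 window held a TATA box 32 bases before its start, and the Sfrp2 window held 0 matches. The TCF/LEF core was in 3.73% of 32851 RefSeq promoter windows and the TATA box in 13.6%, on either strand. The 2 motifs did not overlap each other in these windows. Of the 10 genes, 5 had an entry (Wnt5b, Wnt11, Rspo1, Sfrp2 and Dkk2), and a match describes letters only. Of the windows not printed, that of a further Wnt5b start held a TCF/LEF core on the gene strand, 71 bases before that start. The rest, among them the window of the other Wnt11 start, held no match.

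Of the 9 members that passed the low-count filter, Sfrp2 and Dkk3 fell and 0 rose when same-numbered libraries were compared. Both encode secreted proteins of antagonist families, of which Sfrp1 and Dkk2 did not pass. The 3 Wnt ligands and the 2 tested R-spondins did not pass either. Over all genes, edgeR's test with the block called 2.51% in either direction, 2.11% lower and 0.394% higher, which was 284 and 53 genes, against 299 lower and 146 higher with offsets for GC content and exon length. Without the block it called 0 members, with 0 members at an unadjusted p under 0.05 beside 2.28% of all genes, and DESeq2 and limma-voom without the block also called 0 members. The CPM of the groups overlapped for all 9, against 5.94% of all tested genes whose groups did not overlap. The median log2 fold change with the block was -0.11 over the 9 members and -0.0016 over all tested genes, and the 10th member, Rspo2, was too low to test.

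**Figure D1:**
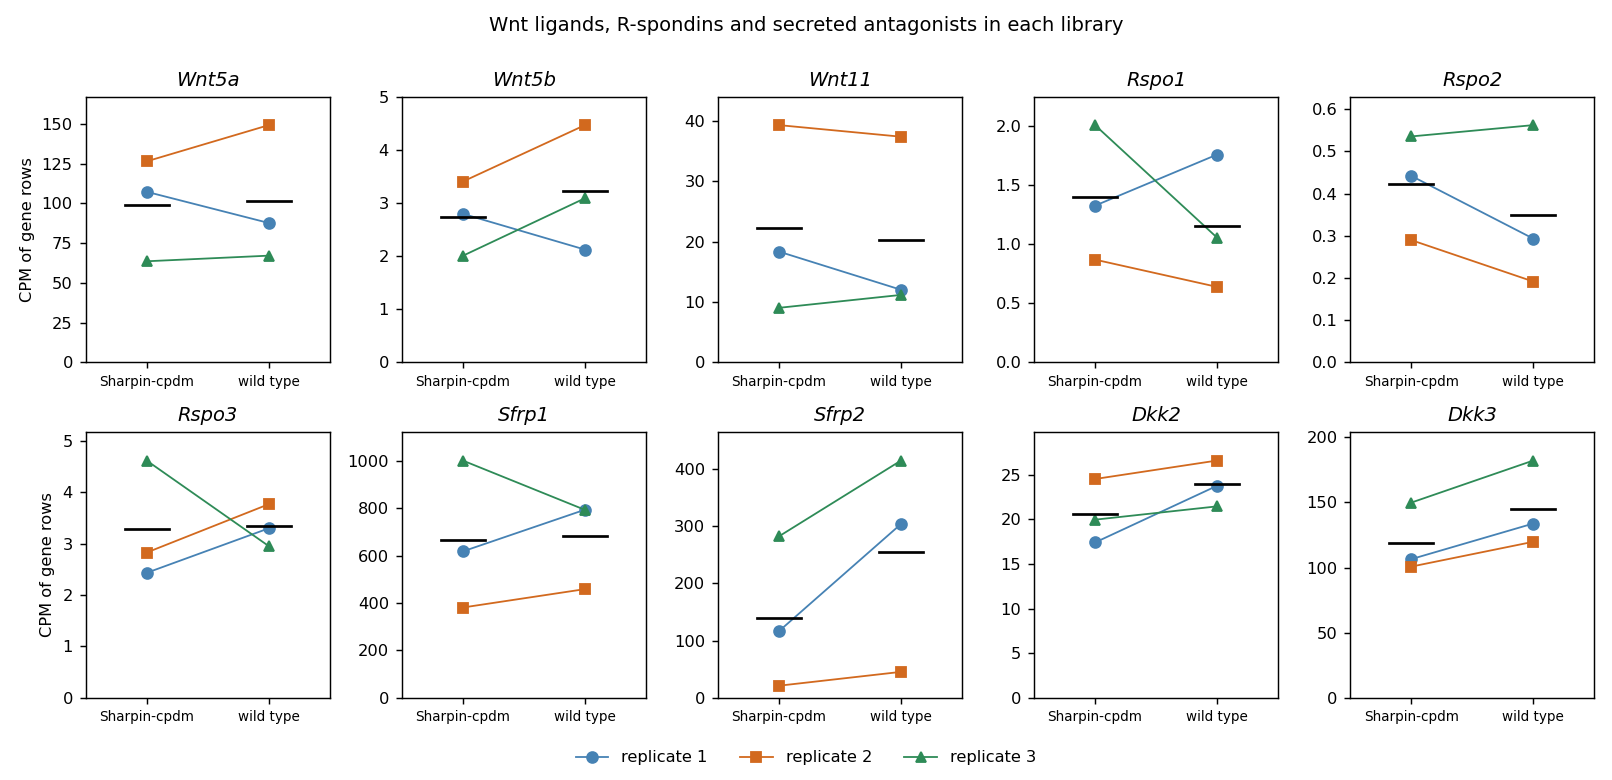
CPM of each of the 10 genes (vertical axes start at 0) in Sharpin-cpdm (left) and wild-type libraries (right), with lines joining same-numbered libraries and black bars at the group means. Sfrp2, Dkk2 and Dkk3 are lower in Sharpin-cpdm in all 3 pairs, while the levels of Wnt5a, Wnt11, Sfrp1 and Sfrp2 differ more between replicate numbers than between genotypes.

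Sfrp2, a Frizzled-related protein that binds Wnts and is abundant in stromal fibroblasts (chromosome 3, 83766321 to 83774316, plus strand, mm10), had 1577, 291 and 4209 reads in Sharpin-cpdm libraries 1, 2 and 3 and 4140, 709 and 5892 reads in wild-type libraries 1, 2 and 3. Those reads came to 116, 21.1 and 282 CPM in Sharpin-cpdm and to 303, 45.3 and 414 CPM in wild type. Library 2 was by far the lowest of each genotype, and the groups overlapped, yet each Sharpin-cpdm library was below the wild-type library of its number. The pairs stood at 0.383, 0.466 and 0.680 of the wild-type level. The log2 fold change was -0.89 ± 1.01 (SE, n = 3 each) without the block (edgeR adjusted p 1.00), and -1.01 ± 0.14 with the block (edgeR adjusted p 0.0256). Leaving out pair 2 took the adjusted p of Sfrp2 in edgeR's test with the block to 0.0717, while it was 0.00535 without pair 1 and 0.0352 without pair 3. An annotated antisense gene, Gm26771, overlaps exons of Sfrp2, and the kit does not mark the strand, so reads of both cannot be told apart.

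Dkk3, a divergent Dickkopf family member secreted by many mesenchymal cells (chromosome 7, 112116017 to 112159057, minus strand), measured 106, 101 and 150 CPM in Sharpin-cpdm libraries 1, 2 and 3 and 134, 120 and 182 CPM in wild-type libraries 1, 2 and 3. The groups overlapped because library 3 was high in both genotypes, and the 3 pairs were close to each other, at 0.795, 0.841 and 0.823 of the wild-type level. Its log2 fold change was -0.30 ± 0.20 (SE, n = 3 each) without the block (edgeR adjusted p 1.00), and -0.30 ± 0.05 with the block (edgeR adjusted p 0.0288). That call was lost without pair 2 (adjusted p 0.103), without pair 3 (0.165) and in DESeq2 with the block (0.0542), and kept without pair 1 (0.0297). With a pair left out the log2 fold change stayed between -0.33 and -0.28, and without the block it ran from -0.48 to -0.11 when single libraries were left out.

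Dkk2, which binds LRP6 (chromosome 3, 132085292 to 132180304, plus strand), had 17.4, 24.5 and 19.9 CPM in Sharpin-cpdm libraries 1, 2 and 3 and 23.7, 26.6 and 21.4 CPM in wild-type libraries 1, 2 and 3. It was lower in all 3 pairs, most in pair 1 at 0.732 of wild type and by less in pairs 2 and 3, at 0.922 and 0.930. Its log2 fold change with the block was -0.23 ± 0.09 (SE, n = 3 each) (edgeR adjusted p 0.277), and -0.22 ± 0.17 without it. Leaving out pair 1 took the value with the block to -0.12. Lower CPM in all 3 pairs was seen for 3 of the 9 tested members and for 18.5% of all tested genes.

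Sfrp1, the most abundant member (chromosome 8, 23411502 to 23449632, plus strand), did not pass. It had 618, 381 and 1002 CPM in Sharpin-cpdm libraries 1, 2 and 3 and 794, 459 and 793 CPM in wild-type libraries 1, 2 and 3. Pairs 1 and 2 were lower in Sharpin-cpdm, at 0.778 and 0.831 of wild type, and pair 3 was higher, at 1.26. The log2 fold change with the block was -0.11 ± 0.12 (SE, n = 3 each) (edgeR adjusted p 0.702), and -0.05 ± 0.36 without it. The pair ratios of Sfrp1 and Sfrp2 ran in the same order, lowest in pair 1 and highest in pair 3.

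Within each pair, Sfrp2 was lower relative to Sfrp1 in the Sharpin-cpdm library. Per kilobase of exon, the ratio of Sfrp2 to Sfrp1 was 0.382, 0.112 and 0.571 in Sharpin-cpdm libraries 1, 2 and 3 and 0.776, 0.200 and 1.06 in wild-type libraries 1, 2 and 3. The ratio in Sharpin-cpdm was 0.492, 0.561 and 0.539 of that in wild type in pairs 1 to 3, a narrow band beside the wide spread of each gene between replicate numbers. Other ratios were less even over pairs 1 to 3. The same values were 1.02, 1.01 and 0.651 for Dkk3 to Sfrp1, and 1.25, 1.24 and 0.854 for Wnt11 to Wnt5a. Sfrp2 made up 23.3%, 7.34% and 31.9% of the summed level per kilobase of Sfrp1, Sfrp2, Dkk2 and Dkk3 in Sharpin-cpdm libraries 1, 2 and 3, against 38.2%, 12.5% and 44.3% in wild-type libraries 1, 2 and 3. A ratio within a library shows unequal change only, and the difference was not tested.

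**Figure D2:**
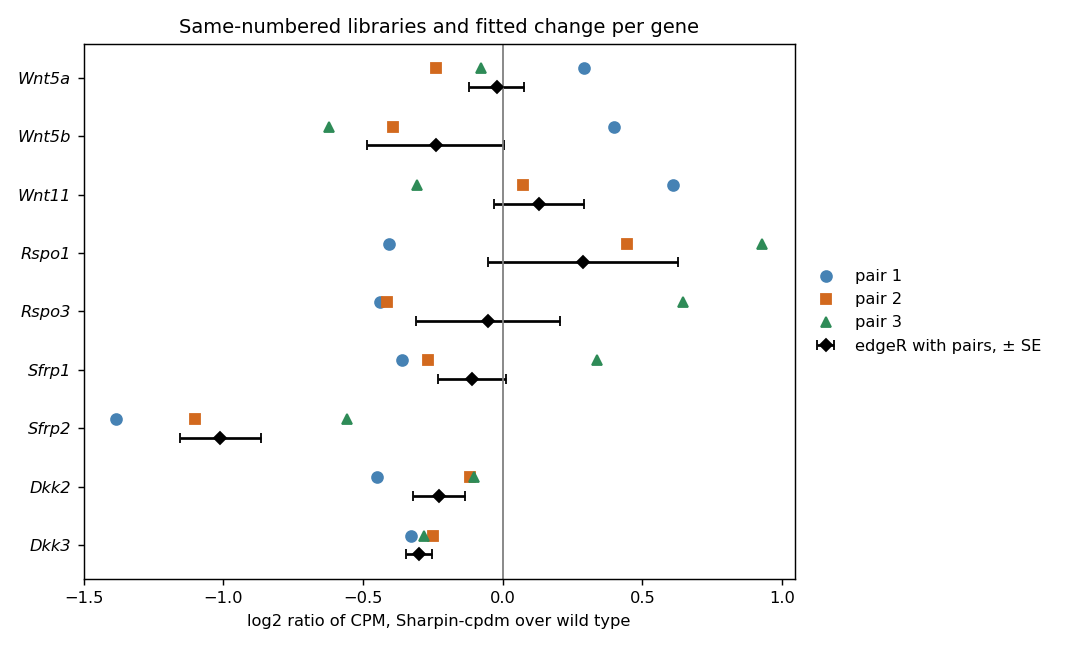
Log2 ratio of CPM, Sharpin-cpdm over wild type, for same-numbered libraries (coloured points, pairs 1 to 3) and the log2 fold change of edgeR's fit with pairs (diamonds, bars ± SE) for the 9 tested genes. Sfrp2 is at -1.01 and Dkk3 at -0.30 with all pairs below 0, whereas the pairs of each Wnt ligand and R-spondin lie on both sides of 0.

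Wnt5a, a ligand that signals largely through ROR receptors (chromosome 14, 28504750 to 28527448, plus strand), had 107, 126 and 63.6 CPM in Sharpin-cpdm libraries 1, 2 and 3 and 87.7, 149 and 67.1 CPM in wild-type libraries 1, 2 and 3. Library 2 was highest and library 3 lowest in both genotypes, and the groups overlapped. Its log2 fold change with the block was -0.02 ± 0.10 (SE, n = 3 each) (edgeR adjusted p 0.934), which turned to 0.01 with offsets for GC content and exon length, and -0.04 ± 0.37 without the block. Wnt11, another ligand known mainly for signals without beta-catenin (chromosome 7, 98835112 to 98855195, plus strand), had 18.3, 39.3 and 9.04 CPM in Sharpin-cpdm libraries 1, 2 and 3 and 12.0, 37.4 and 11.2 CPM in wild-type libraries 1, 2 and 3. As with Wnt5a, library 2 was highest and library 3 lowest in both genotypes. The log2 fold change of Wnt11 with the block was 0.13 ± 0.16 (SE, n = 3 each) (edgeR adjusted p 0.726), and 0.13 ± 0.68 without it.

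Wnt5b, a close relative of Wnt5a (chromosome 6, 119432531 to 119544347, minus strand), was counted at 30 to 47 reads per Sharpin-cpdm library and 29 to 70 per wild-type library. These gave 2.80, 3.41 and 2.01 CPM in Sharpin-cpdm libraries 1, 2 and 3 and 2.13, 4.47 and 3.09 CPM in wild-type libraries 1, 2 and 3. Pair 1 was higher in Sharpin-cpdm and pairs 2 and 3 were lower. The log2 fold change with the block was -0.24 ± 0.24 (SE, n = 3 each) (edgeR adjusted p 0.672), and -0.25 ± 0.36 without it. The antisense gene Gm2670 overlaps exons of Wnt5a and the pseudogene Gm8398 exons of Wnt11, so that their counts are less certain.

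The R-spondins were low, Rspo3 at about the level of Wnt5b and Rspo1 and Rspo2 with the lowest means of all members. Rspo3 (chromosome 10, 29452416 to 29535867, minus strand) had 2.43, 2.83 and 4.62 CPM in Sharpin-cpdm libraries 1, 2 and 3 and 3.30, 3.77 and 2.95 CPM in wild-type libraries 1, 2 and 3. Its pairs 1 and 2 were lower in Sharpin-cpdm and pair 3 was higher, with a log2 fold change of -0.05 ± 0.26 with the block and -0.04 ± 0.29 without it (SE, n = 3 each). Rspo1 (chromosome 4, 124986430 to 125009099, plus strand) had 1.33, 0.870 and 2.01 CPM in Sharpin-cpdm libraries 1, 2 and 3 and 1.76, 0.639 and 1.05 CPM in wild-type libraries 1, 2 and 3. Its pair 1 was lower and pairs 2 and 3 were higher, with a log2 fold change of 0.29 ± 0.34 with the block and 0.28 ± 0.46 without it. The adjusted p of Rspo3 and Rspo1 in edgeR's test with the block was 0.943 and 0.714. Rspo2 (chromosome 15, 43020794 to 43170826, minus strand) had 6, 4 and 8 reads in Sharpin-cpdm libraries 1, 2 and 3 and 4, 3 and 8 reads in wild-type libraries 1, 2 and 3, a depth at which a difference was not detectable. An antisense gene, Gm48159, overlaps exons of Rspo3.

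Levels were compared between genes as CPM per kilobase of exon. Sfrp1 averaged 153 ± 71.6 in Sharpin-cpdm and 156 ± 44.2 in wild type (SD, n = 3 each), Sfrp2 64.9 ± 61.3 in Sharpin-cpdm and 118 ± 87.9 in wild type, and Dkk3 35.4 ± 8.00 in Sharpin-cpdm and 43.2 ± 9.74 in wild type. The 6 libraries of Sfrp1 and Sfrp2 overlapped, as did those of Sfrp2 and Dkk3. Wnt5a came next, at 12.7 ± 4.12 in Sharpin-cpdm and 13.0 ± 5.46 in wild type, below Dkk3 and above Dkk2 without overlap. Dkk2 and Wnt11 overlapped, at 5.56 ± 0.97 and 5.37 ± 3.74 in Sharpin-cpdm and 6.46 ± 0.69 and 4.88 ± 3.60 in wild type. Rspo3 and Wnt5b overlapped at about 1 CPM per kilobase, with 1.07 and 1.03 in Sharpin-cpdm and 1.08 and 1.22 in wild type. Wnt5b and Rspo1 overlapped as well, with Rspo1 at 0.723 in Sharpin-cpdm and 0.594 in wild type, and Rspo2 was below all others at 0.0827 in Sharpin-cpdm and 0.0683 in wild type. By group mean the 3 highest members were of antagonist families in both genotypes, but the libraries of Sfrp2 and Wnt5a overlapped, with Sfrp2 at 9.80 and Wnt5a at 16.2 CPM per kilobase in Sharpin-cpdm library 2. Among all 19 Wnt ligand genes, Wnt5a was below Wnt9a, at 17.9 CPM per kilobase in Sharpin-cpdm and 20.5 in wild type, and the libraries of both genes overlapped.

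The replicate number went with larger differences than genotype for most members. Wnt5a, Wnt5b, Wnt11 and Dkk2 were highest in library 2 of both genotypes, which held for 22.7% of all tested genes. Sfrp1, Sfrp2, Dkk3 and Rspo1 were lowest in library 2 of both genotypes, which held for 35.4% of tested genes. Of the sum of squares of log2 CPM over the 6 libraries, the replicate number took 94.5% for Wnt5a, 94.5% for Wnt11, 88.6% for Sfrp1 and 87.9% for Sfrp2. The median over all tested genes was 72.9%. Genotype took 28.1% for Dkk3, 27.1% for Dkk2, 11.0% for Sfrp2 and 0.0455% for Wnt5a, with a median of 8.27%. Rspo3 differed from the other members, with 29.9% between replicate numbers and 68.3% left over. The labels do not say what a replicate number marks.

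**Figure D3:**
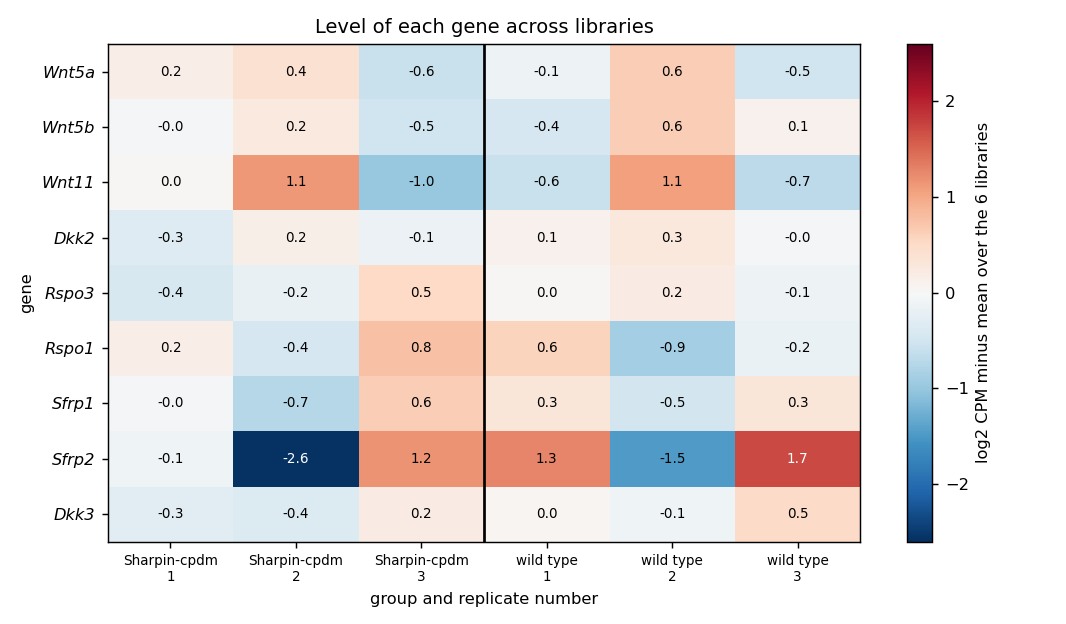
Log2 CPM of the 9 tested genes minus each gene's mean over the 6 libraries, with Sharpin-cpdm libraries left and wild-type libraries right of the line. In both genotypes library 2 is high for Wnt5a, Wnt11 and Wnt5b and low for Sfrp1 and Sfrp2, which reaches -2.57 in Sharpin-cpdm library 2 and -1.47 in wild-type library 2.

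Of the summed marker lists of other cells, only that of macrophages was highest in library 2 of both genotypes. Lyz2 was the largest part of that sum, at 263 CPM in Sharpin-cpdm library 2 and 295 CPM in wild-type library 2. Ptprc, Cd68, Itgam and Cd14 were higher in Sharpin-cpdm library 3 than in library 2, and Cd14 also in wild type. The other macrophage markers were highest in library 2 of both genotypes. The summed level of 11 macrophage markers was 150, 395 and 254 CPM in Sharpin-cpdm libraries 1, 2 and 3 and 79.1, 465 and 204 CPM in wild-type libraries 1, 2 and 3, and 0 of the 11 passed between genotypes in edgeR, DESeq2 or limma-voom with the block, with 1 at an unadjusted p under 0.05 in edgeR. The summed level of 18 fibroblast markers was lowest in library 2, with 93810, 84397 and 98700 CPM in Sharpin-cpdm libraries 1, 2 and 3 and 98650, 83912 and 104111 CPM in wild-type libraries 1, 2 and 3. Col1a1, Col1a2 and Col3a1 led that sum and were lowest in library 2 of both genotypes, as were Pdgfra, Dcn, Lum, Fbln1 and Fbln2. Thy1, Fn1, Vim and Mfap5 were instead highest in library 2 of both genotypes, so the list did not move as a whole. Between genotypes, 15 of 19 endothelial markers fell beside Sfrp2 and Dkk3, with summed levels of 615 to 903 CPM in Sharpin-cpdm and 809 to 1440 CPM in wild type, and 0 of the 19 were at 0 in all libraries. Of 18 fibroblast markers 6 fell and 0 rose in edgeR with the block, while DESeq2 with the block called 7 lower and 2 higher. Of 9 pericyte markers tested 3 fell and 0 rose in edgeR, and DESeq2 and limma-voom with the block gave the same counts. Of 9 adipocyte markers 3 were tested, of which Lpl and Fabp4 fell, and Lep and Retn were at 0 in all libraries. The 9 markers summed to 312 to 681 CPM in Sharpin-cpdm and 459 to 1485 CPM in wild type. Most of this was Lpl, with 271 to 631 CPM in Sharpin-cpdm and 380 to 1389 CPM in wild type. Adipoq, Plin1 and Cidec had at most 3, 1 and 3 reads in a library. Of 6 Schwann cell markers tested 1 rose, and of 10 epithelial markers tested 0 passed, with 1 at an unadjusted p under 0.05 in edgeR. The part of these cells in the values of the members was not tested, and in cultures fewer cells of a type and less RNA per cell cannot be told apart.

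Genes whose log2 CPM ran most like the 3 members with the smallest p were read off over the 6 libraries, from 10933 genes of at least 5 CPM on average. For Sfrp2 they included Snx9 and Dnm1, with Pearson correlations of 0.997 and 0.996. For Dkk3 they were Aldh1a1, Tubb4a and Jhdm1d, with 0.997, 0.996 and 0.996. For Dkk2 they were Lig4, Col27a1 and Hip1r, with 0.994, 0.985 and 0.983. These describe 6 points in 3 pairs, chosen as the highest among many genes, and carry no test. Of them, Dnm1, a dynamin, and Aldh1a1, a retinal dehydrogenase, fell with the block, by log2 fold changes of -0.37 ± 0.06 and -1.04 ± 0.12 (SE, n = 3 each) and edgeR adjusted p of 0.0347 and 0.0136. Without the block these were -0.38 ± 0.39 and -1.08 ± 0.68. Both genes were picked for likeness to Sfrp2 or Dkk3 in the same libraries, so their calls follow in part from that choice. They are no separate evidence on the members.

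Of 92 other Wnt pathway genes that were listed, 91 were found in the tables and 71 could be tested, of which 2 rose and 3 fell with the block. Their median log2 fold change was -0.05, beside -0.0016 over all tested genes. Of 7 other ligands tested, Wnt16 fell and 0 rose. Wnt16 had 5.23, 2.17 and 23.6 CPM in Sharpin-cpdm libraries 1, 2 and 3 and 16.9, 4.47 and 39.6 CPM in wild-type libraries 1, 2 and 3. Like Sfrp2 it was lowest in library 2 and lower in each pair, with a log2 fold change of -1.12 ± 0.18 (SE, n = 3 each) (edgeR adjusted p 0.0383 with the block), and of -0.99 ± 0.99 without it. Wnt9a, Wnt4 and Wnt2b stood at -0.19 ± 0.05, -0.26 ± 0.17 and -0.26 ± 0.16, and did not pass.

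Of 5 other extracellular modulators tested, 0 passed in edgeR or DESeq2 and 1 was lower in limma-voom with the block. In edgeR 3 were at an unadjusted p under 0.05, and all 5 had a log2 fold change below 0, with a median of -0.51. Apcdd1, a membrane-bound Wnt inhibitor, had 13.2, 14.1 and 14.5 CPM in Sharpin-cpdm libraries 1, 2 and 3 and 18.8, 18.2 and 22.1 CPM in wild-type libraries 1, 2 and 3, so that its groups did not overlap. Its log2 fold change was -0.51 ± 0.09 (SE, n = 3 each) (edgeR adjusted p 0.0519 with the block), and -0.51 ± 0.12 without it. Groups without overlap were seen for 5.94% of all tested genes in either direction. In the other Wnt pathway lists they were seen for 1 ligand and 1 receptor, both lower, and for 1 receptor and 1 target gene, both higher. The antagonists Sfrp4, Frzb and Wif1 stood at -0.62 ± 0.19, -0.51 ± 0.20 and -0.61 ± 0.29. The Wnt carrier Wls and the acyltransferase Porcn, both needed for secretion of Wnts, stood at 0.03 ± 0.04 and -0.01 ± 0.18.

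Of 21 receptors and co-receptors tested, Fzd4, a Frizzled receptor also prominent in vessel cells, fell and 0 rose. Fzd4 had 54.5, 42.0 and 78.8 CPM in Sharpin-cpdm libraries 1, 2 and 3 and 67.0, 50.6 and 96.4 CPM in wild-type libraries 1, 2 and 3, with a log2 fold change of -0.30 ± 0.05 (SE, n = 3 each) (edgeR adjusted p 0.0317 with the block), and of -0.30 ± 0.29 without it. DESeq2 with the block called 0 of the 21 receptors, so the call of Fzd4 was lost there. Lgr4, an R-spondin receptor, Fzd5 and the Wnt5a receptor Ror2 stood at 0.33 ± 0.06, 0.40 ± 0.11 and 0.20 ± 0.05, and their edgeR adjusted p with the block was 0.0554, 0.148 and 0.140. Among 19 genes of the cytoplasm and nucleus, such as the Dishevelled gene Dvl3 at -0.15 ± 0.06, and among 10 genes of planar polarity, such as Prickle2 at -0.45 ± 0.12, 0 passed by edgeR, DESeq2 or limma-voom with the block. At an unadjusted p under 0.05 in edgeR there were 0 of the 19 and 2 of the 10.

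Of 7 feedback and target genes tested, Ccnd1 and Wisp1 rose and Wisp2 fell. Ccnd1, cyclin D1, had a log2 fold change of 0.42 ± 0.04, Wisp1, a matricellular protein, of 0.28 ± 0.05 and Wisp2 of -0.43 ± 0.06 (SE, n = 3 each), and their edgeR adjusted p with the block was 0.0109, 0.0441 and 0.0235. Without the block these 3 genes stood at 0.42 ± 0.17, 0.26 ± 0.35 and -0.46 ± 0.51. Axin2, the feedback gene most often read as a measure of beta-catenin signals, had 7.00, 6.23 and 10.6 CPM in Sharpin-cpdm libraries 1, 2 and 3 and 11.5, 7.79 and 18.8 CPM in wild-type libraries 1, 2 and 3. It was lower in each pair, at -0.66 ± 0.14 (edgeR adjusted p 0.0749 with the block), and at -0.68 ± 0.35 without it. The list thus moved in both directions, with a median of 0.0060. Without pair 2, and also without pair 3, 0 other Wnt pathway genes passed, and without pair 1 there were 3 higher and 5 lower.

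**Figure D4:**
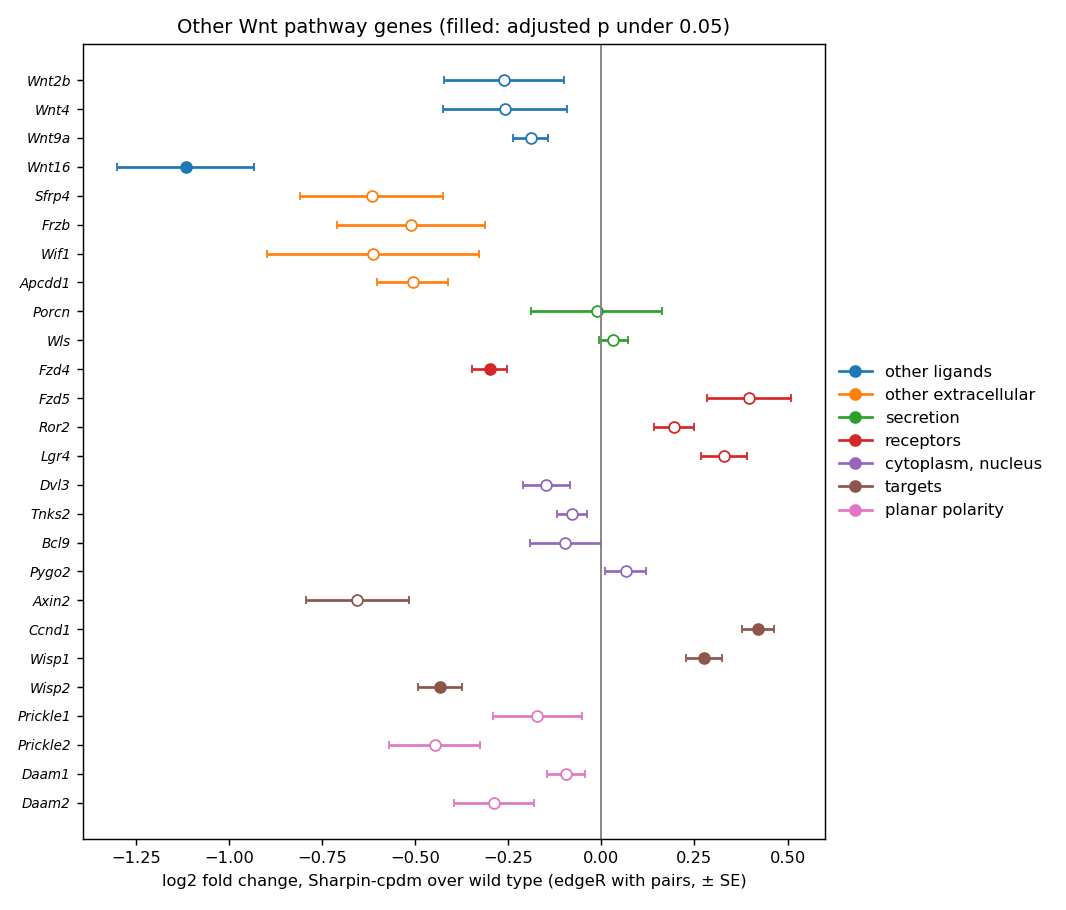
Log2 fold change (Sharpin-cpdm over wild type, edgeR with pairs, bars ± SE) of the other Wnt pathway genes with the smallest p in each list, up to 4 a list, with filled points for an adjusted p under 0.05. Wnt16, Fzd4 and Wisp2 are filled below 0, Ccnd1 and Wisp1 above 0, and the 4 other extracellular modulators shown lie between -0.62 and -0.51.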

How the data were processed

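RNA from 3 Sharpin-cpdm and 3 wild-type fibroblast cultures was made into TruSeq RNA v2 libraries, per the labels' protocols. The authors deposited counts, 1 table of whole reads per gene symbol for each library. The submitters' processing notes name TopHat2 2.0.10, HTSeq 0.5.4p3 and bcl2fastq 1.8.4 with mm10, while the role of each, the annotation and the strand setting are not given in the sources used here. HTSeq's 5 summary rows, 48.8% to 51.2% of a table's entries and mostly alignments that were not unique, were left out, so genes with near-identical copies are less certain.

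CPM values printed here divide counts by the sum of gene counts. Tests used R 4.3.3, edgeR 4.0.16 (filterByExpr, TMM factors of 0.969 to 1.03, quasi-likelihood F-test, two-sided, Benjamini-Hochberg adjustment over all 13442 tested genes), with DESeq2 1.42.0 and limma 3.58.1 as alternatives, and were tested on simulated data. The biological coefficient of variation was 0.217 without and 0.0718 with the replicate block. SE was taken as the absolute log2 fold change over the root of F. P-values without the block measure the spread between these pooled cultures. Those with the block measure only the spread left once the replicate number is taken out. Libraries of a group differed beyond sampling noise (chi-square per degree of freedom 17.7 to 91.0).

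Each library's log2 CPM minus its group mean was correlated between groups across genes. The same-numbered pairs 1 to 3 gave 0.457, 0.809 and 0.737, and the other pairs -0.691 to 0.00677. The deviations of a group sum to 0 for each gene, so the low values of the other pairs follow in part from the high ones. Libraries were paired by number. This comes from the data, as the labels do not say what a number marks. Exon lengths, coordinates and GC content are from GENCODE M21 (GRCm38), promoters from RefSeq. Named are all members, Sharpin, the 4 genes of smallest p in each other Wnt pathway list, and the 3 genes most alike to each of 3 members, of which 1 is not reported here; the text gives examples of the low-ranked ones. The members and lists were chosen with earlier results of these data known. Alternatives changed the scaling, filter, test, block and libraries used.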

Additional observations from a re-analysis of the deposited data

How the results depend on the processing

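Without the replicate block, 0 members, 0 other Wnt pathway genes and 0 genes in all passed under edgeR's other scalings and filters, with each library left out (range 0 to 0) and in limma-voom, and DESeq2 called 2 genes higher and 8 lower, none of them a member. With the replicate block, edgeR called 53 genes higher and 284 lower, among them 0 members higher and 2 lower, and 2 other Wnt pathway genes higher and 3 lower. With GC content and exon length offsets beside the block, 146 genes were higher and 299 lower, with 2 members lower, and 3 higher and 3 lower Wnt pathway genes. Under the block, leaving out pair 1, 2 or 3 gave 134, 9 or 3 genes higher and 519, 119 or 41 lower, 2, 0 or 1 members lower, 3, 0 or 0 Wnt pathway genes higher and 5, 0 or 0 lower; the cause was not tested.

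The following fits with the block were chosen after seeing the data. Size factors of DESeq2 in edgeR gave 56 higher and 280 lower genes, library totals 58 and 307, a mean of at least 1 CPM 52 and 279, no filter 116 and 386, limma-voom 63 and 316, and DESeq2 53 and 288. Members called lower were 2 in each except DESeq2, with 1, and 0 members were higher. Other Wnt pathway genes were 2 higher and 3 lower with size factors and with at least 1 CPM, 2 and 4 with library totals and limma-voom, 3 and 5 with no filter, and 2 and 2 in DESeq2.

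Sfrp2, Dkk2 and Dkk3 stayed below 0 in all 23 alternatives, with Sfrp2 between -1.90 and -0.34 over single libraries left out and between -1.27 and -0.78 over pairs left out, Dkk2 between -0.40 and -0.11 and between -0.30 and -0.12, and Dkk3 between -0.48 and -0.11 and between -0.33 and -0.28. The sign turned for the other tested members when a single library was left out. On the log2 scale Wnt5a then ranged from -0.29 to 0.37, Wnt5b from -0.49 to 0.072 and Wnt11 from -0.61 to 0.96. Rspo1 ranged from -0.052 to 0.70, Rspo3 from -0.34 to 0.14 and Sfrp1 from -0.45 to 0.21. Under the block the sign turned without pair 1 for Wnt11 (-0.054), Rspo3 (0.12) and Sfrp1 (0.024). It turned without pair 2 for Wnt5a (0.088) and Rspo3 (0.12), and without pair 3 for Wnt5a (0.021) and Rspo1 (-0.077). With GC content and exon length offsets beside the block it turned for Wnt5a (0.0069). Counts of 3 to 70 reads per library limit Rspo1, Rspo2, Rspo3 and Wnt5b.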
